A study of Drosophila melanogaster with 14 samples.

Results

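Genes that make, lengthen, desaturate or esterify fatty acids were followed in flies carrying a mutation in the main mitochondrial ADP/ATP carrier. The 9 genes were the acetyl-CoA carboxylase gene ACC, the fatty acid synthase gene FASN1, the desaturase gene Desat1, the elongase genes sit, Elo68alpha, Elo68beta, eloF and Baldspot, and the acyltransferase gene Agpat1. They were chosen by name, with sit also searched as CG5278 and Agpat1 as CG3812, and 8 of the 9 had a probeset of their own, each of them 1 probeset. Baldspot had none and is not analysed further. The 8 stand among 11893 genes with a probeset of their own and 18769 probesets tested.

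Fatty acids are built in the cytosol from acetyl-CoA. Acetyl-CoA carboxylase makes malonyl-CoA, fatty acid synthase strings these units into palmitate, elongases of the endoplasmic reticulum add further pairs of carbons, and desaturases introduce double bonds. Acyltransferases such as Agpat1 join the products to a glycerol backbone on the way to phospholipids and storage fat. In Drosophila several of these enzymes also serve the cuticle and sex pheromones: eloF, with the desaturase Fad2, makes the long dienes of the female cuticle in oenocytes, and Elo68alpha takes part in making the male pheromone cis-vaccenyl acetate.

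Total RNA of whole flies was hybridized to 14 Affymetrix Drosophila arrays: 4 of sesB1 females, 3 of wild-type females, 4 of sesB1 males and 3 of wild-type males. The sesB1 allele is a point mutation in the X-linked sesB gene, which encodes the major adenine nucleotide translocase, and sesB1 females were homozygous. Both genotypes were F1 hybrids of a Canton S mother and an Oregon R father, the mutation having been backcrossed into each strain beforehand, so that they share this mixed background. Flies were kept at 25 °C. The females were virgins, each RNA came from a batch of pooled flies, and their age is given as 2 days in the sample labels but as 1 day in the series' design text. The arrays of a group are labelled as biological replicates, so p-values measure the spread between such batches.

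Signals are on a log2 scale on which 0 is the median of that gene's probeset across the arrays, so that differences between groups can be read while levels cannot be compared between genes. A gene was called at an adjusted p under 0.05 (limma, Benjamini-Hochberg over all 18769 probesets). In whole flies, fewer cells of a type and less RNA per cell cannot be told apart. Replicate arrays correlated with r between 0.85 and 0.98 over all probesets. Transcripts typical of the other sex were raised on 4 arrays. On sesB1 female arrays 2 and 4 these were transcripts of the male accessory gland, ejaculatory bulb and testis. Wild-type male array 2 held more yolk protein and ovary transcripts, and sesB1 male array 4 held more yolk protein transcripts. Beyond the genes followed here, 3 of 3 measured larval fat body genes rose in sesB1 flies of each sex, by 6.07 to 7.17 log2 units in females and by 3.72 to 6.32 in males, and 5 of 6 ovary genes fell in sesB1 females, with a median log2 difference of -1.32. After quantile normalization none of these 6 ovary genes was called in females, with values between -0.85 (Cp18) and 0.26 (osk), while the 3 larval fat body genes were called in both sexes. The part of these tissues in the results was not tested. Quantile normalization gave all arrays the same distribution of values that were already centred by probeset. Under it the 3 yolk protein genes were called higher in sesB1 females (0.84, 0.88 and 0.50), though none was called on the values as deposited. Calls kept or lost under it therefore do not settle which scaling is right.

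In females, 6 of the 8 genes differed between sesB1 and wild type, against 32.2% of all probesets: Elo68alpha, eloF and ACC were higher in sesB1 females, and Agpat1, Elo68beta and FASN1 were lower. In males, 4 of the 8 differed, against 21.9% of all probesets, and all 4 (sit, Elo68alpha, Desat1 and FASN1) were lower in sesB1 males. A change of at least 2-fold was seen for 2 genes in females (Agpat1 and Elo68beta, against 5.48% of probesets) and for 1 in males (sit, against 2.12%). The median log2 difference over the 8 genes was -0.25 in females and -0.18 in males, beside 0.01 and -0.01 over all probesets. The arrays of the 2 genotypes did not overlap for 6 of the 8 genes in females (38.1% of probesets) and for 4 of the 8 in males (29.7%). In males these were not the 4 called genes. The sesB1 arrays were below for sit, Elo68alpha and FASN1 and above for Elo68beta, which was not called, while those of Desat1 overlapped.

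**Figure D1:**
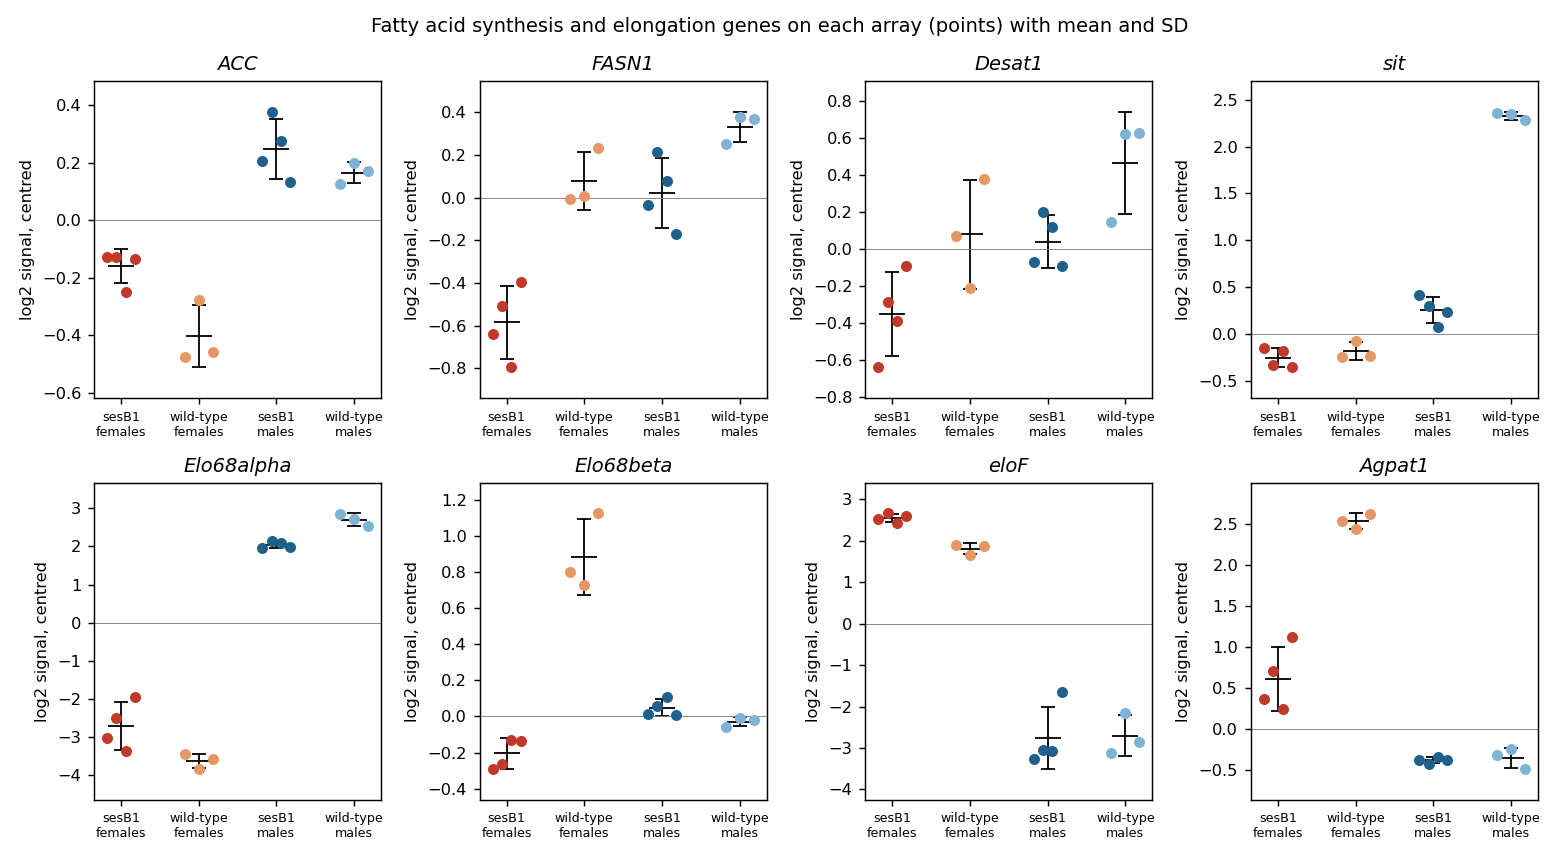
Centred log2 signal (vertical axis, a separate scale in each panel) of the 8 genes on every array, in sesB1 females, wild-type females, sesB1 males and wild-type males. Each point is 1 array, the long tick is the group mean and the bars are the SD. Wild-type males stand apart for sit, wild-type females for Agpat1 and Elo68beta, and the sexes lie furthest apart for Elo68alpha and eloF.

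The first enzymes of the pathway, ACC and FASN1, changed by less than 2-fold and in unlike ways. ACC, whose product malonyl-CoA feeds both synthesis and elongation, measured -0.13, -0.13, -0.25 and -0.13 on the 4 sesB1 female arrays, against -0.47, -0.28 and -0.46 on the 3 wild-type female arrays. The sesB1 female arrays were all above the wild-type ones, by 0.24 ± 0.08 log2 units (SE, adjusted p = 0.0491). The call held under 5 of 16 other settings: it was lost without wild-type array 1 or 3 or sesB1 array 1, 2 or 4 (highest adjusted p = 0.18), and after quantile normalization the difference was -0.020. In males ACC measured 0.21, 0.38, 0.28 and 0.13 in sesB1 flies and 0.13, 0.20 and 0.17 in wild-type flies, and the groups overlapped (log2 difference 0.08 ± 0.08, adjusted p = 0.529).

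FASN1, the synthase that releases palmitate, was lower in sesB1 flies of both sexes. In females it measured -0.64, -0.51, -0.79 and -0.39 on the sesB1 arrays, against -0.01, 0.01 and 0.23 on the wild-type arrays. Every sesB1 female array was below every wild-type one, and the log2 difference was -0.66 ± 0.11 (SE), a 1.58-fold lower signal (adjusted p = 0.00188). In males the values were -0.04, 0.22, 0.08 and -0.17 in sesB1 flies, against 0.25, 0.38 and 0.37 in wild-type flies. The groups again did not overlap, with a smaller log2 difference of -0.31 ± 0.09 (adjusted p = 0.0415). The male call held under 4 of 16 other settings, being lost without wild-type array 2 or 3 or sesB1 array 1, 3 or 4 (highest adjusted p = 0.116), whereas the female call held under 15 of 16. FASN1 was the 1 gene of the 8 that was called in the same direction in both sexes, and the difference between its changes in females and males did not pass the test (-0.35, adjusted p = 0.106, 95% confidence interval -0.68 to -0.03 before adjustment) on all arrays. It did without sesB1 female array 4 (-0.41, adjusted p = 0.0476) and without the 4 arrays with transcripts of the other sex (-0.57, adjusted p = 0.0181).

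Desat1, the main desaturase that places a double bond in palmitate and stearate, shifted by nearly the same amount in each sex. It measured -0.64, -0.29, -0.39 and -0.09 in sesB1 females, against 0.07, -0.21 and 0.37 in wild-type females. The sesB1 male arrays measured -0.07, 0.20, 0.12 and -0.09, against 0.14, 0.62 and 0.63 in wild-type males. Both pairs of groups overlapped. The females differed by -0.43 ± 0.16 log2 units (SE, adjusted p = 0.0748), which passed the test without wild-type array 2, without sesB1 array 4 and without the 4 arrays with transcripts of the other sex (-0.59, adjusted p = 0.0298). The males differed by -0.43 ± 0.13 (adjusted p = 0.0384). This call held under 6 of 16 other settings and was lost without wild-type array 2 or 3 or sesB1 array 1, 3 or 4 (highest adjusted p = 0.141). The difference between the sexes in this change was -0.0045 with a 95% confidence interval of -0.48 to 0.47. Its probeset is of a kind (suffix _s_at) that can match several transcripts or genes, as is that of Agpat1.

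The 4 measured elongases took 4 different courses. The gene sit, an elongase of very long chains, was the most changed of the 8 genes in males. Its values in sesB1 males were 0.42, 0.30, 0.07 and 0.24, against 2.36, 2.35 and 2.28 in wild-type males. The wild-type male arrays lay close together and far above the 4 sesB1 arrays, and the signal was 4.2-fold lower in sesB1 males (log2 difference -2.07 ± 0.09, adjusted p = 3.1e-07), or lower by 1.38 log2 units after quantile normalization. In females sit measured -0.15, -0.33, -0.18 and -0.35 in sesB1 flies and -0.24, -0.07 and -0.23 in wild-type flies. These groups overlapped (log2 difference -0.07 ± 0.09, adjusted p = 0.631), and the change in females differed from that in males by 2.00 (95% confidence interval 1.74 to 2.26, adjusted p = 1.59e-07), or by 1.12 after quantile normalization.

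Elo68alpha, the pheromone elongase of males, was lower in sesB1 males and higher in sesB1 females. In males it measured 1.96, 2.13, 2.08 and 2.00 in sesB1 flies, against 2.86, 2.71 and 2.53 in wild-type flies. No arrays overlapped, and the log2 difference was -0.66 ± 0.09 (1.58-fold lower, adjusted p = 0.000543), or -0.41 after quantile normalization (adjusted p = 0.0298). In the joint fit of all 14 arrays it did not pass (adjusted p = 0.0721). Genes of organs that make seminal products also fell in sesB1 males: 5 of 5 accessory gland genes, by 0.64 to 0.74 log2 units, 2 of 3 ejaculatory bulb and duct genes and 3 of 5 testis genes. After quantile normalization the 5 accessory gland genes and the same 2 bulb and duct genes (Ebp and EbpII) were still called lower, but 1 testis gene was (dj, -0.59), and Mst87F, Mst84Da and betaTub85D gave 0.17, 0.27 and 0.029. The part of these organs in the change of Elo68alpha was not tested.

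In females Elo68alpha measured -3.04, -2.49, -3.37 and -1.96 in sesB1 flies, against -3.46, -3.84 and -3.59 in wild-type flies. The 2 highest values came from sesB1 arrays 2 and 4, the same that held more accessory gland transcript (-4.17 and -2.16 for the mean of 5 genes, against -5.85 and -6.01 on sesB1 arrays 1 and 3 and -6.12 to -5.88 on wild-type arrays). The log2 difference was 0.91 ± 0.29 (adjusted p = 0.0399) on all arrays, and 0.42 (adjusted p = 0.0632) without the 4 arrays with transcripts of the other sex. It was called under 5 of 16 other settings and was lost without wild-type array 1, 2 or 3 or sesB1 array 2 (highest adjusted p = 0.127). The difference between the changes in females and males (1.57, adjusted p = 0.00304) was called under all 20 settings tried, but its size varied. It was 1.32 without sesB1 female array 4 and 0.87 after quantile normalization.

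Elo68beta, which lies beside Elo68alpha on chromosome arm 3L, did not follow its neighbour. It measured -0.29, -0.26, -0.13 and -0.13 in sesB1 females, against 0.80, 0.73 and 1.13 in wild-type females. All sesB1 female arrays were below all wild-type ones, and the signal was 2.13-fold lower (log2 difference -1.09 ± 0.11, adjusted p = 0.00015). In males every array was near 0, at 0.02, 0.06, 0.11 and 0.01 in sesB1 flies and at -0.06, -0.01 and -0.02 in wild-type flies (log2 difference 0.08 ± 0.06, adjusted p = 0.482). The sesB1 male arrays were all above the wild-type ones, though the gene was not called. The change in females differed from that in males by -1.17 (adjusted p = 2.13e-05). On the female arrays the ovary genes were lower in the sesB1 group as well: their mean was 2.52, 2.42, 1.23 and 2.74 in sesB1 females, against 3.64, 3.49 and 3.58 in wild-type females. After quantile normalization 0 of the 6 ovary genes were called lower (osk gave 0.26, nanos -0.023 and bcd -0.18), and Elo68beta gave -0.98 (adjusted p = 0.00117). Whether the change of Elo68beta goes with the amount of ovary RNA was not tested.

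The female elongase eloF was higher in sesB1 females, at 2.54, 2.66, 2.42 and 2.60, against 1.89, 1.66 and 1.89 in wild-type females. The groups did not overlap, and the log2 difference was 0.74 ± 0.09 (1.67-fold, adjusted p = 0.000458), or 1.17 after quantile normalization (adjusted p = 0.000816). In the joint fit of all 14 arrays, where the spread of the male arrays enters, it did not pass (adjusted p = 0.0742). In males eloF was far lower and its arrays spread widely, at -3.28, -3.06, -3.06 and -1.66 in sesB1 flies and at -3.12, -2.16 and -2.85 in wild-type flies (log2 difference -0.06 ± 0.36, adjusted p = 0.946). The highest male value of each genotype came from sesB1 array 4 and wild-type array 2, where the mean of the 3 yolk protein genes was -2.69 and -1.30, against -7.62 to -7.34 on the other 5 male arrays. Without the 4 arrays with transcripts of the other sex, eloF differed between the changes in females and males by 0.81 (adjusted p = 0.00393), against 0.80 (adjusted p = 0.201) on all arrays.

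**Figure D2:**
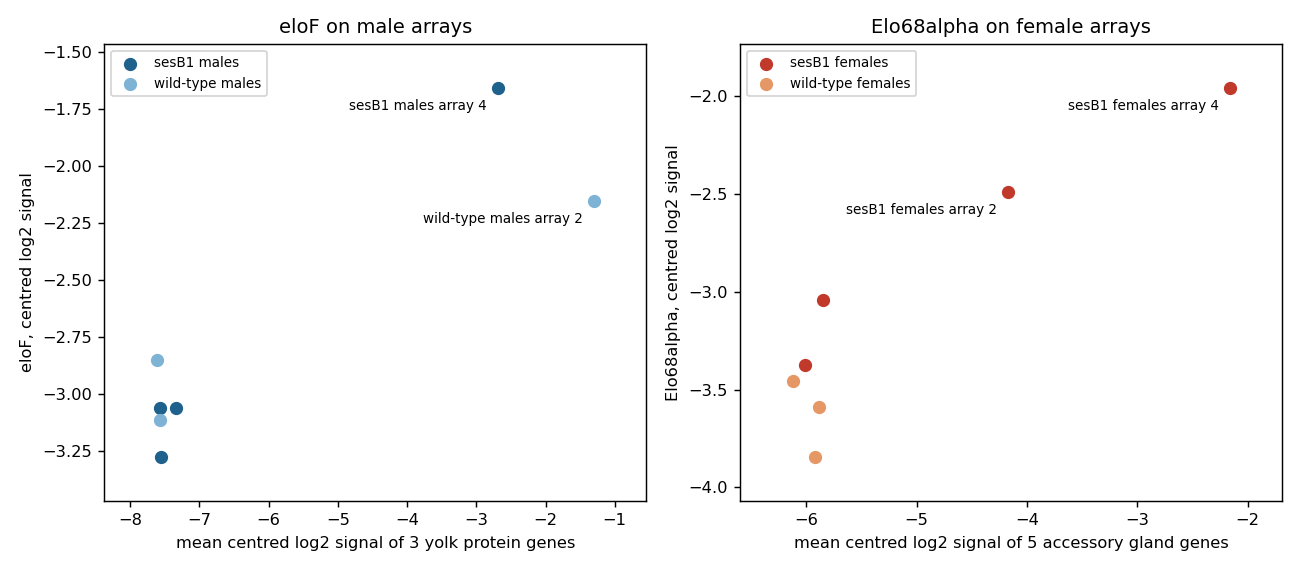
Left, eloF (vertical axis, centred log2 signal) against the mean of 3 yolk protein genes (horizontal axis) on the 7 male arrays. Right, Elo68alpha against the mean of 5 accessory gland genes on the 7 female arrays. Each point is 1 array; the 4 named arrays have the highest values on both axes of their panel.

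Agpat1, which adds the second fatty acid in making phosphatidic acid and is encoded on the X chromosome, was the most changed of the 8 genes in females. It measured 0.37, 0.71, 0.24 and 1.12 in sesB1 females, against 2.53, 2.43 and 2.62 in wild-type females. The highest sesB1 array (1.12) was well below the lowest wild-type one (2.43), and the signal was 3.78-fold lower (log2 difference -1.92 ± 0.19, adjusted p = 0.000142). In males it measured -0.38, -0.42, -0.34 and -0.37 in sesB1 flies and -0.32, -0.24 and -0.49 in wild-type flies, overlapping groups (log2 difference -0.03 ± 0.07, adjusted p = 0.856). The change in females differed from that in males by -1.89 (adjusted p = 4.25e-05). As for Elo68beta, the 3 wild-type female arrays were the highest of all 14, and the ovary genes were also lower on the sesB1 female arrays. After quantile normalization Agpat1 gave -1.57 (adjusted p = 0.0166), and no ovary gene was called. Whether the change of Agpat1 goes with the amount of ovary RNA was not tested.

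**Figure D3:**
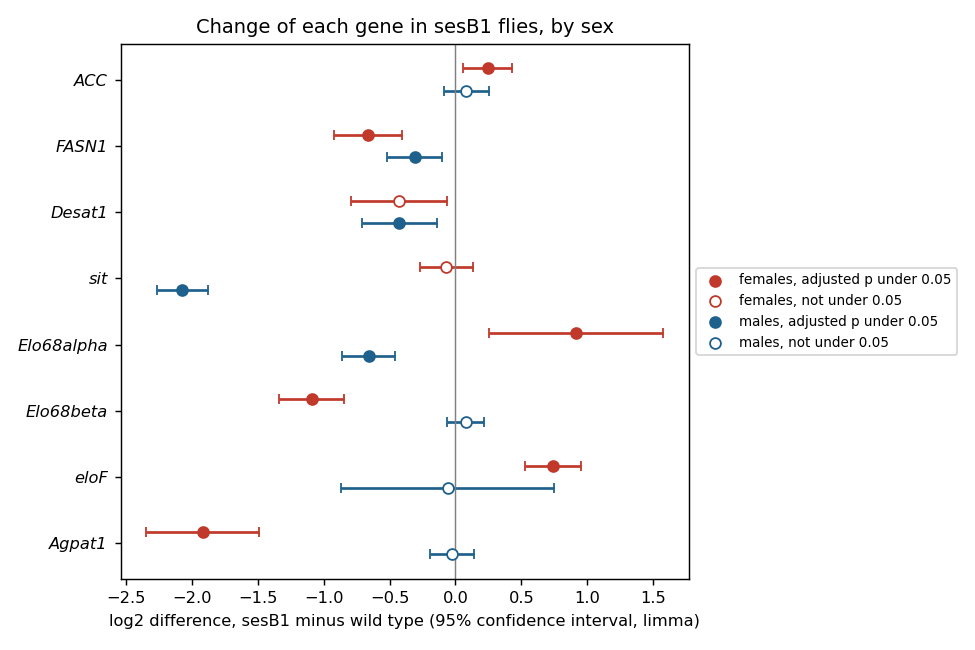
Log2 difference, sesB1 minus wild type (horizontal axis), of each of the 8 genes in females (red) and males (blue), with 95% confidence intervals from limma before adjustment for multiple tests. Filled points have an adjusted p under 0.05. Only FASN1 has filled points on the same side of 0 in both sexes, and only Elo68alpha has them on opposite sides.

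The test of the difference between the changes in females and males was passed by 4 of the 8 genes (sit, Elo68alpha, Elo68beta and Agpat1), against 27.6% of all probesets, and each of these 4 calls held under all 20 other settings. ACC, FASN1, Desat1 and eloF did not pass. Counted by sex, 4 genes were called in females alone, 2 in males alone, 1 in both sexes the same way (FASN1) and 1 in both in opposite ways (Elo68alpha). The shares of all probesets in these classes were not counted. The last 2 classes rest on unsteady calls: that of FASN1 in males held under 4 of 16 other settings and that of Elo68alpha in females under 5.

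The sexes themselves were then compared within each genotype. All probesets together had a median difference, females minus males, of 0.17 log2 units in sesB1 flies and 0.15 in wild-type flies, which is the shift against which these values stand. Of the 8 genes, all differed by sex in sesB1 flies (65.1% of probesets) and 6 in wild-type flies (64.1%). Elo68alpha was 27.1-fold lower in females than in males among sesB1 flies and 80.5-fold lower among wild-type flies, that is, with log2 differences of -4.76 and -6.33, which were -3.81 and -4.68 after quantile normalization. Without the 4 arrays with transcripts of the other sex, its difference in sesB1 flies was -5.26. In the other direction, eloF was higher in females than in males by 5.32 log2 units in sesB1 flies and by 4.52 in wild-type flies (6.56 and 5.70 after quantile normalization). Agpat1 was higher in females by 0.99 log2 units in sesB1 flies and by 2.88 in wild-type flies. For sit the sex difference was -0.51 log2 units in sesB1 flies and -2.51 in wild-type flies (means of -0.25 in sesB1 females and 0.26 in sesB1 males, against -0.18 in wild-type females and 2.33 in wild-type males). Elo68beta was lower in females than in males in sesB1 flies (-0.25, adjusted p = 0.0129) and higher in females in wild-type flies (0.91, adjusted p = 3.08e-07). FASN1, ACC and Desat1 were all lower in females than in males in sesB1 flies, by 0.61, 0.41 and 0.39 log2 units. In wild-type flies ACC was lower in females by 0.57 log2 units, while the differences of -0.25 for FASN1 (adjusted p = 0.0661) and -0.39 for Desat1 (adjusted p = 0.058) did not pass the test. Both passed after quantile normalization (FASN1 -0.44, adjusted p = 0.00486; Desat1 -0.51, adjusted p = 0.0161), and under 5 and 8 of 20 other settings in all.

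Among the 14 other elongases with a probeset of their own (of 15 listed), more rose than fell in sesB1 females and more fell than rose in sesB1 males. In females 9 were higher and 1 lower (13.4% and 18.9% of all probesets), with a median log2 difference of 0.60. In males 1 was higher and 8 were lower (11.1% and 10.8% of all probesets), with a median of -0.29. After quantile normalization 6 elongases were higher and 1 was lower in females, and 1 was higher and 6 were lower in males. Without the 4 arrays with transcripts of the other sex, the counts were 10 and 1 in females and 1 and 4 in males. Of all 18769 probesets, 2495 were then higher and 3481 lower in females, and 1668 and 1335 in males. The difference between the sexes passed the test for 11 of the 14 elongases, each with the larger value in females (11.6% of all probesets), or for 7 after quantile normalization (3.91%). No list was tested as a whole, and the median over all probesets was 0.01 in females and -0.01 in males.

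By name, CG33110 rose most in sesB1 females (log2 difference 1.33, adjusted p = 4.18e-05; -0.08 in males, not called), followed by CG18609, which rose in both sexes (1.17 and 0.93). CG6660 rose by 0.96 in females and fell by 0.36 in males. The elongase bond, needed for cell division in spermatocytes, rose by 0.89 in females and fell by 0.31 in males, where quantile normalization gave -0.19 (adjusted p = 0.094). Elovl7 fell in both sexes, by 0.37 and 1.53. CG5326 rose by 0.71 in females and fell by 1.99 in males on its first probeset. A second probeset of CG5326 gave 0.54 and -2.24, and another gave -0.03 in each sex, so the probesets of this gene disagree. In gene order along 3R, CG5326, AdipoR, bond, sit and CG33110 follow each other. The elongases with the largest falls in sesB1 males (sit, and CG5326 on its first probeset) thus lie near the one with the largest rise in sesB1 females. CG16904, CG9459 and CG9458, which follow eloF on 3R, were higher in sesB1 females by 0.53, 0.62 and 0.88, although after quantile normalization the first 2 were not called (0.07 and 0.13). The elongase just before eloF, CG8534, had means of 0.16 in sesB1 females and -0.04 in wild-type females. After quantile normalization it gave 0.15 in females (limma, adjusted p = 0.689).

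**Figure D4:**
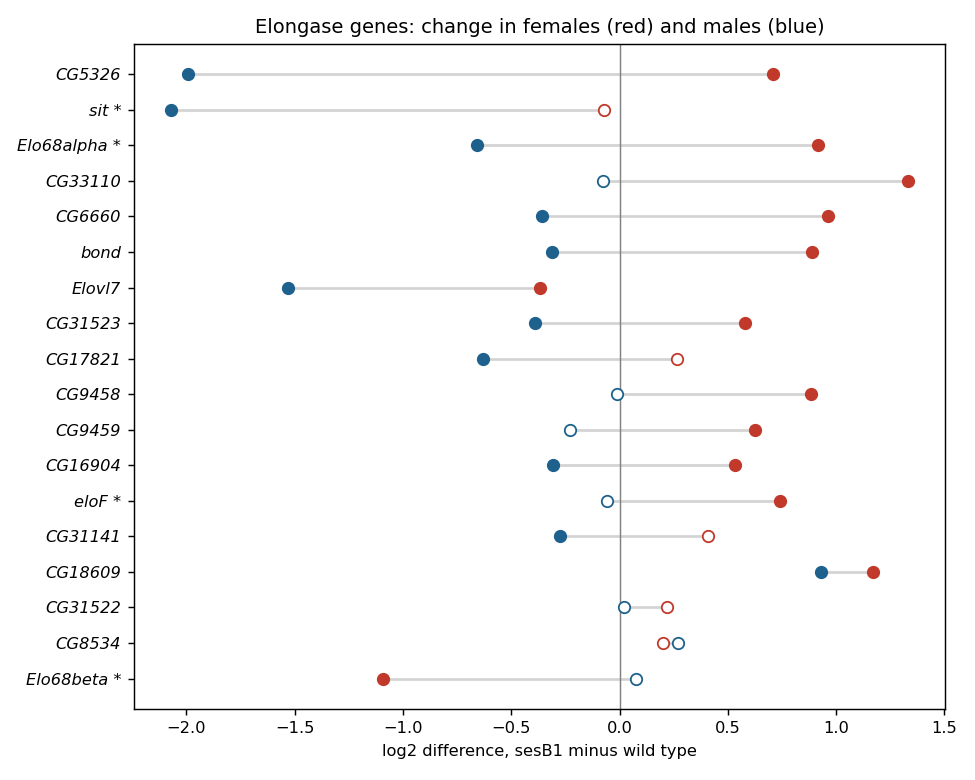
Log2 difference, sesB1 minus wild type (horizontal axis), of sit, Elo68alpha, Elo68beta, eloF and the 14 other measured elongases in females (red) and males (blue), ordered by the difference between the sexes. Filled points have an adjusted p under 0.05; asterisks mark the first 4. The female point lies right of the male point for all genes but CG8534 and Elo68beta.

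The enzymes that complete each round of elongation moved less in females. Of 4 such genes, 1 rose in sesB1 females (the dehydratase Hacd1, 0.37, which was 0.01 after quantile normalization), while in sesB1 males 3 fell and 1 rose. After quantile normalization 2 of the 4 were called in males, both lower (spidey and Sc2), and Hacd2 was called higher in females (0.32, adjusted p = 0.0182). As deposited, the ketoacyl reductase gene spidey fell by 0.50 in males, Sc2, the enoyl reductase, by 0.27 and Hacd1 by 0.26, and Hacd2 rose by 0.26.

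Genes that supply carbon and NADPH, with the other synthases, were higher in sesB1 females for 6 of 7 measured (of 9 listed), and in sesB1 males for 3, with 2 lower. The female count depended on the scaling: after quantile normalization 1 of the 7 was higher. The NADP-dependent isocitrate dehydrogenase gene Idh rose by 0.68 in females and 0.45 in males, and AcCoAS, which activates acetate, by 0.61 and 0.58. On the values as deposited, the oenocyte synthases FASN2 and FASN3 went in opposite directions in the sexes. FASN2, next to FASN1 on 2L, rose by 0.68 in sesB1 females, against a fall of FASN1 there, and fell by 0.37 in sesB1 males. FASN3 rose by 0.50 in females and fell by 0.92 in males. After quantile normalization FASN2 and FASN3 were not called in females (0.18 and 0.40) and stayed lower in males (-0.27 and -1.52). ATP citrate lyase (ATPCL) was called in neither sex, at -0.07 and -0.14.

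A set of 5 oenocyte genes, which includes FASN2, FASN3 and spidey, had 3 higher in sesB1 females and 5 lower in sesB1 males (1, FarO, and 5 after quantile normalization). Their mean per array was -0.16 to -0.02 in sesB1 females, against -0.61 to -0.46 in wild-type females, and -0.13 to 0.02 in sesB1 males, against 0.48 to 0.57 in wild-type males. The 2 genes of this set that are in no other list were FarO, a fatty acyl-CoA reductase (1.02 in females, -0.87 in males), and Cyp4g1, which makes cuticular hydrocarbons from aldehydes (0.06 in females, not called, and -0.26 in males). The part of oenocyte number or size in the changes of the elongases and synthases was not tested.

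Of 9 other desaturases and electron carriers, 6 were higher and 1 lower in sesB1 females (4 and 0 after quantile normalization), and 1 was higher and 1 lower in sesB1 males. CG8630 and CG15531 rose by 1.35 and 1.26 in females and gave -0.15 and -0.12 in males, which were not called. Cyt-b5-r rose in both sexes, by 0.96 and 1.18. CG9747 fell by 1.06 in males and gave 0.31 in females, not called. Fad2, the partner of eloF in making female dienes, rose by 0.57 in sesB1 females, and its sex difference of 6.75 log2 units in sesB1 flies and 5.96 in wild-type flies was in the same direction as that of eloF.

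Glycerolipid synthesis was mixed, with 4 of 9 genes higher and 2 lower in sesB1 flies of each sex. The diacylglycerol acyltransferase genes, whose enzymes make storage fat, rose in both sexes: Dgat2 by 1.32 in females and 0.33 in males, and mdy by 0.46 in females and 1.43 in males. The phosphatidate phosphatase gene Lpin rose by 1.03 in females and gave 0.29 in males (adjusted p = 0.0554). Agpat2 fell by 0.76 in females, the same direction as Agpat1, whereas Agpat3 rose by 0.58. Of 8 regulators of lipogenesis, 3 fell in sesB1 females, and in sesB1 males 1 rose (Mondo, 0.21) and 1 fell (S2P, -0.25). In females S1P, the protease that starts the release of SREBP, fell by 1.15 (-1.17 after quantile normalization), S2P by 0.46 and bigmax by 0.31, and SREBP itself gave -0.20 in females and -0.22 in males and was called in neither. After quantile normalization the calls of S2P and bigmax in females (-0.28 and -0.19) and of Mondo in males (0.19) were lost, and SREBP was called lower in males (-0.29, adjusted p = 0.0394). The regulator sug gave -0.27 in females and 0.25 in males, neither called. Over the 6 lists, 26 of 51 measured genes were higher and 7 lower in sesB1 females, beside 13.4% and 18.9% of all probesets, and after quantile normalization 16 and 4, beside 7.55% and 8.18%. In sesB1 males 11 were higher and 17 lower, beside 11.1% and 10.8%, and after quantile normalization 9 and 15, beside 9.89% and 9.28%. The same shares are the background of the counts of each list. Without the 4 arrays with transcripts of the other sex, 5 were higher and 9 lower in sesB1 males, beside 1668 and 1335 of all 18769 probesets.

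**Figure D5:**
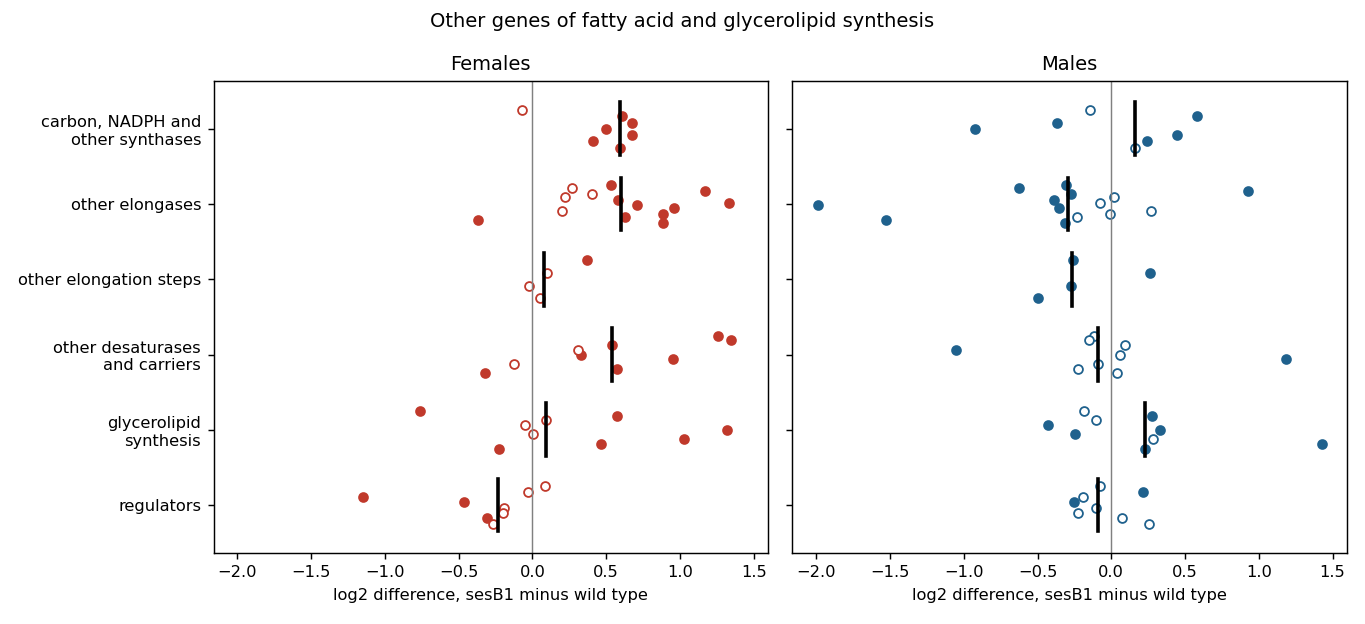
Log2 difference, sesB1 minus wild type (horizontal axis), of the 51 other genes of fatty acid and glycerolipid synthesis in females (left) and males (right), by list. Each point is 1 gene, filled where the adjusted p is under 0.05, and the bars are list medians, which for the other elongases are 0.60 in females and -0.29 in males.

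The genes most like 4 of the 8 were found by Pearson's r over the 14 arrays, among 11861 genes; the arrays share the 2 sexes and genotypes, so the values describe group patterns. Nearest to sit were CG18301, CG30427 and CG2663 (r = 0.996, 0.993 and 0.992), each with a log2 difference between -4.23 and -3.82 in males, and 70 genes had r over 0.9. Nearest to eloF were CG43090, Fad2 and APC7 (r = 0.996, 0.993 and 0.993), and 2130 genes had r over 0.9. FASN1 was most like Mlf, Paip2 and CG18268 (r = 0.966, 0.963 and 0.962), and Desat1 most like coil, Cnx99A and CG10055 (r = 0.925, 0.924 and 0.917), with 54 and 6 genes over 0.9.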

How the data were processed

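The 14 arrays were normalized in Genespring GX by the authors. How probes were summarised and filtered, and the software version, are not given in the labels or methods used here. The deposited values are scores on a log2 scale, centred so that all 18922 complete probesets have a median of 0 across the arrays. They hold no brightness, so signal over background is unknown, and the number of arrays limits the precision. Of 265328 deposited values, 30 were spreadsheet dates, treated as missing. After 183 control probesets were left out, 18769 were tested, of which 13646 carried 1 gene symbol, 402 several and 4721 none. Symbols came from the platform annotation and were updated through a table of current RefSeq genes (13543 matched), which also gave gene order. For a listed gene with several probesets the first by suffix and identifier was used.

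Each sex was fitted with limma 3.58.1 (lmFit, eBayes) in R 4.3.3. Interactions and sex differences came from 1 fit of all 14 arrays. The labels name 4 sesB1 arrays per sex and the study's methods triplicate isolations; all were used. The steps were tested on simulated data. Alternatives were quantile normalization, arrays centred on their medians, a block for the replicate number, weights on arrays, robust eBayes, a joint fit, the methods' t-test, a 2-fold threshold and the omission of each array. Leaving out 4 arrays with transcripts of the other sex was chosen after seeing the data. All 8 genes are described. From each list, up to 4 genes with the largest change in either sex are named, and other genes (CG6660, bond, the neighbours of eloF, Fad2, Agpat3, SREBP, Mondo, ATPCL and second probesets) were added after their values were seen. For 4 genes the 3 most alike are named. The genes and lists were chosen with earlier results of these data known.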

Additional observations from a re-analysis of the deposited data

Results flagged for a closer look

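Of 16 groups of 4 arrays tested for a value far from the others, 2 held one, and chance gives about 1 in 20. eloF measured -1.66 on sesB1 male array 4, a gap of 0.867 of the group's range to the next array; this array also held yolk protein transcripts. ACC measured -0.25 on sesB1 female array 3, a gap of 0.948 of the range within a group whose whole range was small.

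For 4 genes the change differed between females and males by a test of the difference itself in limma: sit by 2.00 log2 units (adjusted p = 1.59e-07), Elo68alpha by 1.57 (adjusted p = 0.00304), Elo68beta by -1.17 (adjusted p = 2.13e-05) and Agpat1 by -1.89 (adjusted p = 4.25e-05).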

How the results depend on the processing

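With all arrays as deposited, 6 of the 8 genes were called in females and 4 in males. In males this became 2 after quantile normalization, 1 in the joint fit, 2 without the 4 arrays with transcripts of the other sex, 2 by the methods' t-test with Benjamini-Hochberg adjustment, 1 by it with Bonferroni adjustment, 1 at a 2-fold threshold, and 2 to 4 when single arrays were left out (2 without wild-type male array 2 or 3, or sesB1 male array 1, 3 or 4). In females it became 4 after quantile normalization, which lost Elo68alpha and ACC, 4 with arrays centred on their medians and with robust eBayes, 7 with array weights, and 6 in the joint fit, which lost eloF and added Desat1; it was 5 without the 4 arrays, 5 by the t-test with Benjamini-Hochberg adjustment, 0 with Bonferroni adjustment of that t-test, 2 at a 2-fold threshold, and 4 to 6 when single arrays were left out. Without the 4 arrays, 5976 of all probesets were called in females and 3003 in males. Over all probesets, quantile normalization gave 2953 calls in females in place of 6050, 3597 in males in place of 4112 and 1781 interactions in place of 5183. By sex it gave 5441 higher and 5273 lower in females in place of 8227 and 3991 among sesB1 flies, and 5050 and 4993 in place of 7387 and 4644 among wild-type flies. The 8 sex differences in sesB1 flies became 2 at a 2-fold threshold. Values that changed sign were small and not called under either setting, except ACC in females, called on the values as deposited: -0.020 after quantile normalization, which also gave 0.32 for eloF in males and -0.10 for the interaction of ACC. Without the 4 arrays sit in females was 0.018 and Agpat1 in males 0.023. Array weights gave 0.019 for the interaction of Desat1. With single arrays left out, eloF in males ranged from -0.43 to 0.22, Agpat1 in males from -0.10 to 0.024 and the interaction of Desat1 from -0.15 to 0.16. The causes were not tested.

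With the replicate block, 5 of the 8 genes were called in females and 3 in males, and 5541 probesets in place of 6050 and 2614 in place of 4112. Within each sex, sesB1 and wild-type arrays of the same number, 1 to 3, did not deviate together (r between -0.15 and 0.09 in females and between -0.17 and 0.05 in males). Female and male arrays of the same number were not compared, so a pairing across the sexes was not tested. Each gene had 1 probeset, so no other probeset could be tried, and a trend of the spread has no meaning for centred values. Over the single genes, 641 results under other settings kept their direction and side of the threshold, 55 no longer passed it, 23 newly passed it and 17 changed sign.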
